A study of Rattus norvegicus with 18 samples.

Results

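Elastic fiber genes were followed across 5 regions of the rat heart. The 10 genes are Eln, Fbn1, Fbln1, Fbln2, Fbln5, Mfap4, Mfap5, Lox, Loxl1 and Emilin1, and each was taken by its gene name from a table of 32883 genes. RNA had been sequenced from 18 pieces of tissue: 4 of the superior sinoatrial node (sSAN), 4 of the inferior sinoatrial node (iSAN), 4 of the right atrium (RA), 4 of the left atrium (LA) and 2 of the left ventricle (LV). The study asked how the pacemaker regions near the superior and inferior caval veins differ from working myocardium, and here that question was put to the elastic fiber genes. All tissue came from healthy, untreated male Sprague Dawley rats. Replicates 1 and 2 of the 4 atrial regions were 59 days old, and replicates 3 and 4 of every region were 70 days old, so the LV had 70-day rats only. Libraries with the same replicate number share the ending of their title and were taken as pieces of 1 rat, which the titles imply but do not state. Each library is a whole piece of tissue that holds myocytes, fibroblasts, vessels and other cells. In such bulk samples, fewer cells of a type and less RNA per cell cannot be told apart.

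Elastic fibers let a tissue stretch and recoil. They are made of a core of cross-linked elastin laid on a scaffold of fibrillin microfibrils, with fibulins linking the parts and lysyl oxidases forming the cross-links. In the heart they lie in the endocardium, the epicardium and the walls of vessels, and the atria and the sinoatrial node are rich in connective tissue that holds them. Fibroblasts and smooth muscle cells are their main makers.

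The promoters of 5 of the 10 genes could be matched in RefSeq (build GRCr8): Fbn1, Fbln2, Fbln5, Mfap5 and Loxl1. Those of Fbln5 and Fbln2 are shown because these were the only members called higher when the LA was set against the RA, and that of Fbn1 because it rose in both nodes while its level in the atria was near equal. Mfap5 met the same description as Fbn1, and its promoter is not shown. Each printed stretch runs 5′ to 3′ from 250 bases before to 50 bases after the start of the gene as annotated. Capitals mark the matches of 7 searched motifs. In Fbn1 the letters from that start on begin with a start codon, so the annotated start may be that of the coding sequence. The 250 bases before it may then be transcribed, which was not tested.
Fbln5, chr6:126742657-126742956, minus strand: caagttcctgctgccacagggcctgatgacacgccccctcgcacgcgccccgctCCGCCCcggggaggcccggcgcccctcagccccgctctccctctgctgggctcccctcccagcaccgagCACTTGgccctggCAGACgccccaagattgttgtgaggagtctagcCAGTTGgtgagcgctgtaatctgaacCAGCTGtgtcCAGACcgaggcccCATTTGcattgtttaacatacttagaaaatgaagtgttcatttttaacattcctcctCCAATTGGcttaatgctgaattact
Fbln2, chr4:125261409-125261708, plus strand: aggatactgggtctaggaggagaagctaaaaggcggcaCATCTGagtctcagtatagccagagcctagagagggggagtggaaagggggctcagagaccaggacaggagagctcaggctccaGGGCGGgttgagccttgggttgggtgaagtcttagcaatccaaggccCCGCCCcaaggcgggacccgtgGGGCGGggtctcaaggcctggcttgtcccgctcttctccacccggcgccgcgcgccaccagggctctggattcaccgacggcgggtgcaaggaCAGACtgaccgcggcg
Fbn1, chr3:133203341-133203640, minus strand: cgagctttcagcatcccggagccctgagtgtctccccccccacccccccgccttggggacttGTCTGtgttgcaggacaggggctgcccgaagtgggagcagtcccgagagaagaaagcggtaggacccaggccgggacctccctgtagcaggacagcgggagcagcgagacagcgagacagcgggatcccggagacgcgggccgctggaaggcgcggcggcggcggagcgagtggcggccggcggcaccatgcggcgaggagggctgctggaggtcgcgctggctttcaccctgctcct

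The motifs were sought on both strands: the TATA box TATAAA, the GC box GGGCGG, the CCAAT box CCAAT, the AP-1 site TGANTCA, the SMAD element CAGAC, the E box CANNTG and the CArG box. The GC box was found in Fbln2, with 3 matches, and in Fbln5, with 1, and in none of the other 3 promoters. It was present in 33.1% of 33469 rat promoters of the same length. Fbln5 also held 2 CCAAT boxes, 2 SMAD elements and 5 E boxes, and at its 3′ end both CCAAT boxes overlap 1 E box in the same 8 letters. Fbn1 held a single SMAD element. SMAD elements stood in 4 of the 5 promoters and in 50.1% of all promoters, E boxes in 3 of 5 and in 72.1%, and CCAAT boxes in 2 of 5 and in 37.5%. No TATA box, AP-1 site or CArG box was found in the 5 promoters, against 14.2%, 7.33% and 1.64% of all promoters. The GC content was 58.3% in Fbln5, 64.7% in Fbln2 and 70.7% in Fbn1, with a median of 51.7% over all promoters. In the 2 promoters not shown it was 51.7% (Mfap5) and 61% (Loxl1). A match is a run of letters and was not tested for binding.

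The 18 libraries held 17334954 to 24252103 counts each. Levels are given as CPM, counts scaled to the depth of the library and its TMM factor, where 1 CPM rests on about 20 reads. Mitochondrial genes took 16.4% to 20.5% of the counts in the RA and LA, 19.1% to 40.8% in the nodes and 35.0% to 35.4% in the LV. Atrial myocyte markers summed to 37515 to 51672 CPM in the RA and LA and to 7689 to 30471 CPM in the nodes, and sinoatrial node markers to 112 to 247 CPM in the nodes and to 52.8 CPM or less in the RA and LA. Ventricular myocyte markers summed to 11309 to 14097 CPM in the LV and to 396 CPM or less elsewhere. The markers thus went with the labels as node, atrium or ventricle, and their sums overlapped between the sSAN and the iSAN except for the ventricular genes. Outside the LV those sums were mostly Myh7, with means of 153 CPM in the sSAN, 235 CPM in the iSAN and 300 CPM in the RA. In the sSAN and iSAN, Myl3 averaged 12.75 and 14.4 CPM, Myl2 5.30 and 3.76 CPM, and Irx4 had no counts. The sinoatrial node markers also set the RA, at 43.6 to 52.8 CPM, apart from the LA, at 25.8 to 32.0 CPM.

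Of the 10 genes, 9 had counts in all 18 libraries and were tested in 8 comparisons of regions. Mfap4 was too low to test and is described last. Differences are log2 fold changes of TMM-scaled counts from edgeR's quasi-likelihood test, and a gene was called where the p-value, adjusted by Benjamini-Hochberg over all genes tested, was under 0.05. The comparisons with the RA share its 4 libraries, and those with the LA share its 4 libraries.

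The nodes were richer in elastic fiber RNA than either atrium. In the iSAN, 6 of 9 genes rose over the RA (Fbn1, Mfap5, Fbln1, Fbln2, Fbln5 and Lox), where 10.4% of all genes tested were called higher. In the sSAN, 5 of 9 rose over the RA (the same genes without Fbln1), with 13.8% of all genes called higher. None was called lower in either node, where 6.16% of all genes were called lower in the iSAN and 8.48% in the sSAN. Emilin1 had an unadjusted p under 0.05 for a lower level in each node, and DESeq2 called it lower in each. The median log2 fold change of the 9 genes was 1.13 for the iSAN and 0.75 for the sSAN, against 0.0068 and 0.024 over all genes. With the replicate number as a block in the fit, 8 genes rose and 1 fell in the iSAN, where 11.6% and 8.28% of all genes were called. In the sSAN, 7 rose and 1 fell with the block, where 12.9% and 9.36% of all genes were called. The ages were also taken alone, with 2 rats each: over the RA, 4 of the 9 rose in the sSAN at either age, while in the iSAN 1 rose at 59 days (Fbln5) and 5 at 70 days.

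**Figure D1:**
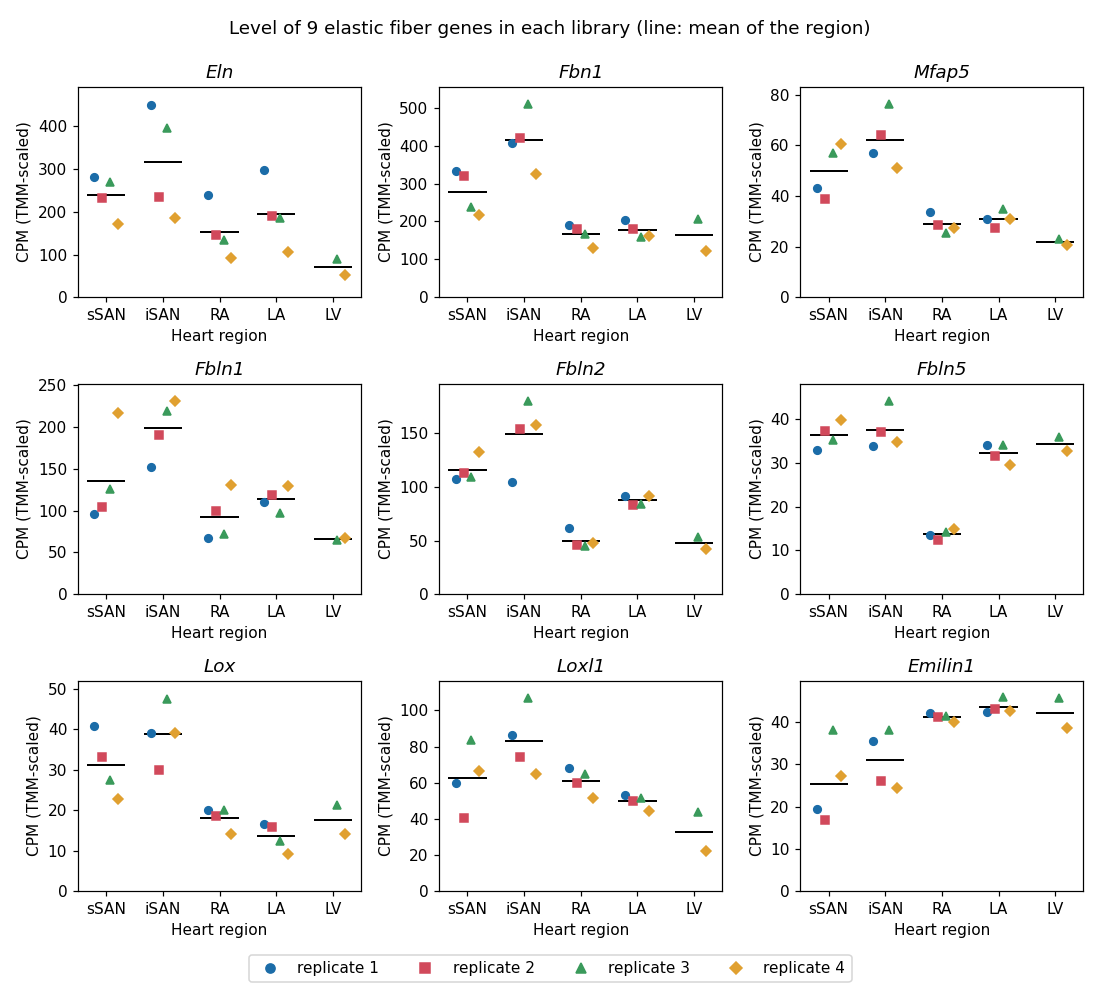
Level of 9 elastic fiber genes in each of the 18 libraries, in TMM-scaled CPM on a linear axis from 0, by heart region, with 1 symbol for each replicate number and a line at the mean of the region. Fbln5 is low in the 4 RA libraries, at 12.3 to 14.8 CPM, Emilin1 is lower in the nodes than elsewhere, and most other genes are highest in the iSAN.

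The summed level of the 10 genes was 1332 ± 216 CPM in the iSAN (SD, n = 4), 972 ± 33.6 CPM in the sSAN, 743 ± 99.2 CPM in the LA, 625 ± 81.7 CPM in the RA and 499 ± 122 CPM in the LV (n = 2). Every iSAN library, at 1113 to 1617 CPM, lay above every atrial library, at 547 to 880 CPM, and so did every sSAN library, at 936 to 1013 CPM. Eln, Fbn1, Mfap5, Fbln1 and Fbln2 shared 1 order of mean levels, iSAN over sSAN over LA over RA over LV. Lox and Loxl1 kept the nodes on top but had the RA above the LA, Fbln5 had the RA at the bottom, and Emilin1 had the nodes at the bottom.

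Markers of other cells moved with the nodes as well. The summed level of 8 fibroblast genes was 7765 to 10794 CPM in the iSAN, 5934 to 8735 CPM in the sSAN, 3496 to 4503 CPM in the RA and 4291 to 5043 CPM in the LA. Its largest parts were the matrix genes Col3a1, Col1a1 and Dcn, with means of 3640, 1576 and 1233 CPM in the sSAN. Tcf21 alone of the 8 had a lower mean in each node than in the RA, at 32.4 CPM (sSAN), 34.5 CPM (iSAN) and 39.8 CPM (RA). Over the RA, 7 of the 8 rose in the iSAN and 4 in the sSAN, where 10.4% and 13.8% of all genes were called higher. Smooth muscle genes summed to 544 to 915 CPM in the iSAN, 704 to 1080 CPM in the sSAN, 225 to 284 CPM in the RA and 313 to 370 CPM in the LA, and 6 and 7 of the 8 rose over the RA, against the same shares of all genes. Adipocyte genes reached 95.8 to 2401 CPM in the iSAN and 717 to 4231 CPM in the sSAN and lay between 7.71 and 21.6 CPM in the RA and LA, where up to 4 of the 6 genes were at 0. Schwann cell genes summed to 53.01 to 460.03 CPM in the iSAN, 72.1 to 551 CPM in the sSAN and 16.9 to 26.4 CPM in the RA and LA, with no overlap. Endothelial genes summed to 781 to 1121 CPM in the nodes and 740 to 1014 CPM in the RA and LA. The part of these cells in the differences of the elastic fiber genes was not tested.

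**Figure D2:**
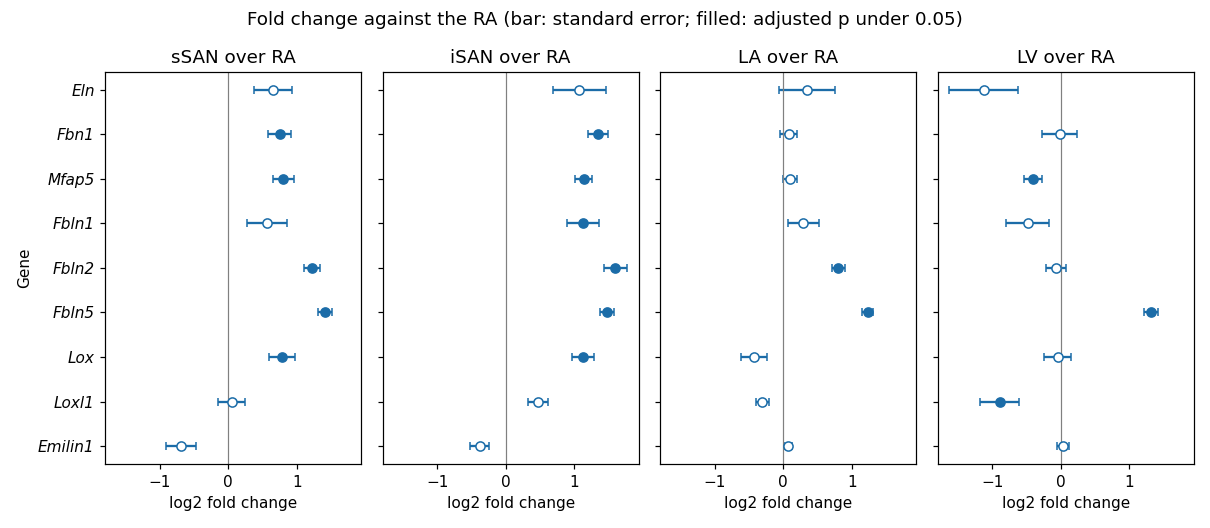
Log2 fold change of 9 genes in the sSAN, iSAN, LA and LV over the RA, with the standard error as a bar and filled symbols for an adjusted p under 0.05. Fbln5 stands at 1.23 to 1.48 in all 4 comparisons, and besides it Fbln2 is the only gene called in the LA.

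Eln encodes tropoelastin, the soluble unit of the elastin core. Its gene spans chr12:24978483-25021863 on the plus strand. Gene positions here and below are those of the deposited table, whose build is known only by its Ensembl release, and are not those of GRCr8. Its level in replicates 1 to 4 was 281, 231, 269 and 172 CPM in the sSAN and 449, 234, 396 and 185 CPM in the iSAN. It was 239.5, 146, 134 and 90.9 CPM in the RA and 297, 191, 186 and 107 CPM in the LA. The LV had 89.03 and 51.7 CPM in replicates 3 and 4. The regions overlapped, but within each rat the order against the RA held: both nodes were above the RA in 4 of 4 rats, and so was the LA. The sSAN was above the LA in 3 of 4 rats.

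Eln was not called in any of the 8 comparisons by edgeR's test on the 2 regions without a term for the rat. The log2 fold change was 0.66 (SE 0.28, adjusted p = 0.127) for the sSAN over the RA, 1.08 (SE 0.39, adjusted p = 0.11) for the iSAN and 0.35 (SE 0.41, adjusted p = 0.718) for the LA. With the replicate number as a block it was called in all 3: 0.72 (adjusted p = 0.015), 1.07 (adjusted p = 0.00323) and 0.35 (adjusted p = 8.1e-05). The sSAN was also called over the RA when RA replicate 1, the highest of that region, was left out, at 0.96 (adjusted p = 0.027). Within the 59-day rats the difference between the sSAN and the RA was 0.43 and within the 70-day rats 0.96. For the iSAN these values were 0.84 and 1.41. The LV lay lowest, at -1.47 (adjusted p = 0.0845) against the LA. It was called there by DESeq2, at -1.47 (adjusted p = 0.00938), and with all 5 regions in the fit, at -1.46 (adjusted p = 0.0218). Without LA replicate 4 it was called at -1.68 (adjusted p = 0.0285). These fits set the LV, of 70-day rats only, against an LA that includes 59-day rats, with LA replicate 1 the highest. With the replicate block, which compares within rats, the LV over the LA was -1.06 (adjusted p = 2.59e-05). That fit rests on 2 pairs, replicates 3 and 4, since LA replicates 1 and 2 have no LV partner. Its p-value leans on the spread shared over genes and should not be read as stronger evidence than the fits without a block.

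Eln also differed between rats. Replicate 1 was highest and replicate 4 lowest in each of the 4 atrial regions, and the ratio of replicate 1 to replicate 4 was 2.63 in the RA, 2.78 in the LA, 2.43 for the iSAN and 1.63 for the sSAN. The LV showed the same order for its 2 rats. The coefficient of variation of Eln was 41.0% for the RA, 39.9% for the LA and 40.0% for the iSAN. Fbln1 ran the other way: replicate 4 was highest in each of the 4 atrial regions, and the ratio of replicate 1 to replicate 4 was 0.515 in the RA, 0.845 in the LA, 0.66 for the iSAN and 0.443 for the sSAN. Fbln5 had ratios of 0.826 to 1.15. The 4 rats are too few for a test of such an order, and the pattern was noticed after the values were seen.

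**Figure D3:**
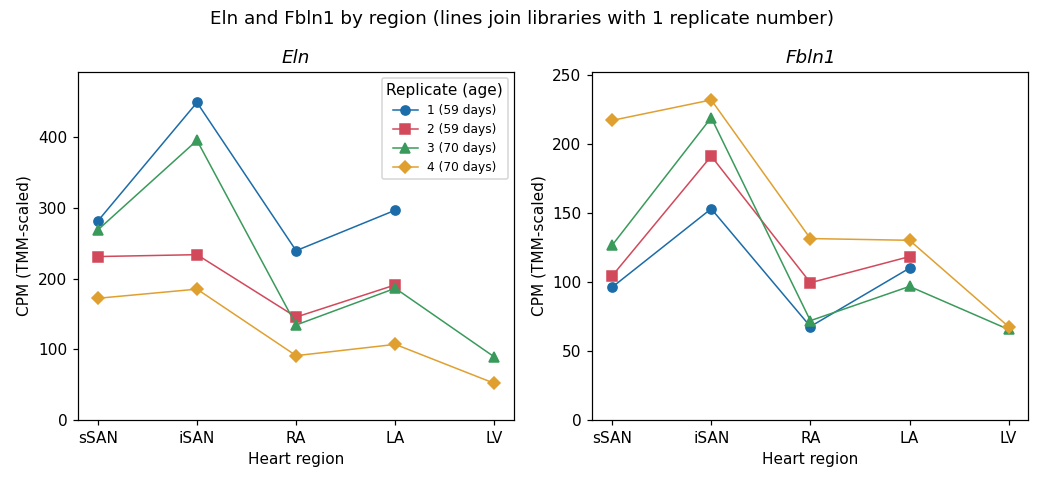
Level of Eln and Fbln1 in TMM-scaled CPM by heart region, with lines joining the libraries of 1 replicate number and the age of the rat in the legend. For Eln, replicate 1 lies above replicate 4 in all 4 atrial regions, and for Fbln1 replicate 4 lies on top in all 4.

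Fbn1 (chr3:117569697-117766120, minus strand) encodes fibrillin-1, the main protein of microfibrils. In replicates 1 to 4 it was at 407, 421, 509.5 and 325 CPM in the iSAN and 332, 321, 238 and 217 CPM in the sSAN. The RA had 189.9, 179.6, 167 and 129.5 CPM and the LA 204, 181, 160.0 and 160.5 CPM. The LV had 208 and 123 CPM in its 2 libraries. Every node library was above every atrial library, and the RA, LA and LV overlapped.

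Fbn1 rose in the iSAN by 1.34 (SE 0.15, adjusted p = 0.000565) over the RA and by 1.26 (SE 0.13, adjusted p = 0.000338) over the LA. Both calls held without any 1 library, and both were lost within the 59-day rats alone, at 1.18 (adjusted p = 0.0631) and 1.12 (adjusted p = 0.0677). Within those rats the iSAN calls of Mfap5, Fbln1, Fbln2 and Lox over the RA and LA were lost as well, and that of Loxl1 over the LA. In the sSAN it rose by 0.75 (SE 0.17, adjusted p = 0.015) over the RA, and this lost its call when replicate 2, the rat with the highest adipocyte sums in both nodes, was left out of both regions, at 0.69 (adjusted p = 0.063), a choice made after seeing the data. Over the LA the sSAN rose by 0.66 (SE 0.16, adjusted p = 0.0187), with an adjusted p of 0.0527, 0.0529, 0.0558 and 0.058 without sSAN replicate 1 and LA replicates 2, 3 and 4. Between the LA and the RA Fbn1 differed by 0.078 (adjusted p = 0.801). The LV was not called against the LA at -0.10 (adjusted p = 0.741), but was at -0.52 (adjusted p = 0.0226) without LV replicate 3. A gene model named AABR07053635.1 overlaps Fbn1, so that reads in the overlap could be lost or split.

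Mfap5 (chr4:155313671-155336228, plus strand) encodes a small glycoprotein that binds fibrillin on microfibrils. Its level ranged over 51.03 to 76.5 CPM in the iSAN, 38.8 to 60.5 CPM in the sSAN, 25.5 to 33.9 CPM in the RA and 27.3 to 34.8 CPM in the LA. The LV libraries, at 22.95 and 20.8 CPM, were below all others. Mfap5 rose over the RA by 1.14 (SE 0.13, adjusted p = 0.000563) in the iSAN and 0.80 (SE 0.15, adjusted p = 0.00749) in the sSAN. Over the LA it rose by 1.03 (adjusted p = 0.000501) and 0.69 (adjusted p = 0.0118). The difference between the sSAN and the RA was 0.41 in the 59-day and 1.15 in the 70-day rats. In the LV it fell, with log2 fold changes of -0.40 (adjusted p = 0.0249) against the RA and -0.51 (adjusted p = 0.0055) against the LA. Both LV calls were lost without LV replicate 4, at -0.33 (adjusted p = 0.153) and -0.44 (adjusted p = 0.0557). That against the RA was also lost with all 5 regions in the fit, at -0.38 (adjusted p = 0.112), and within the 70-day rats, at -0.28 (adjusted p = 0.128).

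The fibulins are linker proteins, and Fbln5 (chr6:125644804-125723944, minus strand), which binds elastin and is needed in mice for normal elastic fibers, had a pattern of its own. Across replicates 1 to 4 the RA had 13.5, 12.3, 14.3 and 14.8 CPM. The LA had 34.02, 31.6, 34.2 and 29.6 CPM, and the LV 36.02 and 32.7 CPM in its 2 libraries. The sSAN had 32.8, 37.3, 35.2 and 39.7 CPM and the iSAN 33.8, 37.1, 44.2 and 34.7 CPM. The highest RA library stood at 14.8 CPM and the lowest of the other 14 at 29.6 CPM, so the RA lay apart from all other regions while those overlapped.

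Against the RA, Fbln5 was higher by 1.41 (SE 0.10, adjusted p = 0.000137) in the sSAN, 1.48 (SE 0.10, adjusted p = 4.7e-05) in the iSAN, 1.23 (SE 0.082, adjusted p = 3.01e-06) in the LA and 1.32 (SE 0.11, adjusted p = 3.77e-06) in the LV. These 4 calls held under every alternative fit, including each library left out and each age alone, with adjusted p-values up to 0.0361. No difference was called between the nodes, or between the LA and either node or the LV, and the nodes were not compared with the LV. The 95% interval of the log2 fold change was -0.30 to 0.19 for the sSAN over the iSAN, -0.030 to 0.38 for the sSAN over the LA, 0.032 to 0.45 for the iSAN over the LA (adjusted p = 0.111) and -0.14 to 0.31 for the LV over the LA. The fibroblast and smooth muscle sums of the LA were 4291 to 5043 CPM and 313 to 370 CPM, and those of the RA 3496 to 4503 CPM and 225 to 284 CPM, and their part in this difference was not tested.

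Fbln2 (chr4:122835436-122895121, plus strand), found in microfibrils and basement membranes, was lowest in the RA and LV. For replicates 1 to 4 the RA had 61.2, 45.8, 45.3 and 47.6 CPM and the LA 91.4, 83.5, 83.9 and 91.3 CPM. The sSAN had 107, 113, 109 and 133 CPM and the iSAN 105, 154, 179.8 and 158 CPM. The LV had 53.1 and 42.5 CPM. The RA lay below the LA and both nodes with no overlap, and it overlapped the LV.

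Over the RA, Fbln2 rose by 1.60 (SE 0.17, adjusted p = 0.000499) in the iSAN, 1.22 (SE 0.12, adjusted p = 0.000697) in the sSAN and 0.80 (SE 0.094, adjusted p = 0.000221) in the LA. The iSAN exceeded the LA by 0.79 (adjusted p = 0.0042) and the sSAN did so by 0.41 (adjusted p = 0.0147), the latter with an adjusted p of 0.0536 without LA replicate 2. In the LV it fell against the LA, with a log2 fold change of -0.87 (SE 0.10, adjusted p = 7.47e-05). Fbln2 and Fbln5 were the 2 of 9 genes called higher when the LA was set against the RA, where 4.37% of all genes tested were called higher. None of the 9 was called lower there, while 4.26% of the whole table was. At an unadjusted p under 0.05, 2 of the 9 were lower, and DESeq2 called 1. With the replicate block, 3 rose and 2 fell in the LA, with 8.97% and 8.95% of all genes called. The median log2 fold change of the 9 genes in the LA was 0.099, against -0.00059 over all genes.

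Fbln1 (chr7:126096793-126176468, plus strand), a fibulin of elastic fiber cores and basement membranes, was called in the iSAN and the LV. Its level in replicates 1 to 4 was 153, 191, 219 and 232 CPM in the iSAN and 96.1, 104, 126 and 217 CPM in the sSAN. It was 67.6, 99.3, 71.8 and 131 CPM in the RA and 109.9, 118, 96.7 and 130.1 CPM in the LA, and 65.5 and 67.5 CPM in the LV. The iSAN lay above the RA and LA, and the sSAN overlapped both. Fbln1 rose in the iSAN by 1.13 (SE 0.23, adjusted p = 0.0132) over the RA and 0.83 (SE 0.14, adjusted p = 0.003) over the LA. Without replicate 2 in both regions the first was 1.19 (adjusted p = 0.0844). The call over the RA was lost at either age alone, with adjusted p-values of 0.156 at 59 days and 0.125 at 70 days. That over the LA was lost at 59 days, at 0.60 (adjusted p = 0.187). In the sSAN it was 0.57 (adjusted p = 0.209) over the RA, and with the replicate block 0.54 (adjusted p = 0.0285). In the LV it fell against the LA, with a log2 fold change of -0.78 (SE 0.12, adjusted p = 0.000341), and this call was lost with all 5 regions in the fit, at -0.76 (adjusted p = 0.0659).

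Lox (chr18:47500330-47577819, minus strand) encodes lysyl oxidase, which cross-links elastin and collagen. In replicates 1 to 4 it was at 39.1, 30.01, 47.6 and 39.1 CPM in the iSAN and 40.97, 33.2, 27.5 and 22.8 CPM in the sSAN. The RA had 20.1, 18.5, 20.1 and 14.1 CPM and the LA 16.7, 15.9, 12.4 and 9.27 CPM. The LV had 21.3 and 14.1 CPM. Each node lay above the RA and LA with no overlap. Lox rose in the iSAN by 1.13 (SE 0.16, adjusted p = 0.00163) over the RA and 1.55 (SE 0.20, adjusted p = 0.00128) over the LA, and in the sSAN by 0.79 (SE 0.19, adjusted p = 0.0176) and 1.21 (SE 0.23, adjusted p = 0.00709). The sSAN call over the RA missed the threshold without RA replicate 2 or 4, with adjusted p-values of 0.0506 and 0.0505, and without replicate 2 in both regions, at 0.0858. Between the atria the log2 fold change of Lox in the LA was -0.43 (adjusted p = 0.227), and it was called with the replicate block, at -0.45 (adjusted p = 0.00341). The genes Znf474 and Y_RNA overlap Lox in the deposited annotation, and whether strand was used in counting is not given in the sources used here.

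Loxl1 (chr8:63067300-63092009, minus strand), a lysyl oxidase that in mice maintains elastic fibers, moved less. Its level ranged over 64.7 to 107 CPM in the iSAN, 40.3 to 83.7 CPM in the sSAN, 51.7 to 67.98 CPM in the RA and 44.4 to 53.3 CPM in the LA, and was 43.6 and 22.2 CPM in the LV. It rose in the iSAN over the LA by 0.77 (SE 0.14, adjusted p = 0.0051), and no other node comparison was called. This call was lost within the 59-day rats, at 0.66 (adjusted p = 0.147), and within the 70-day rats, at 0.87 (adjusted p = 0.134). Over the RA the iSAN stood at 0.47 (adjusted p = 0.0598), with the replicate block at 0.45 (adjusted p = 0.00804) and without iSAN replicate 4 at 0.56 (adjusted p = 0.0274). The sSAN stood at 0.047 (adjusted p = 0.89) over the RA and at 0.34 (adjusted p = 0.225) over the LA, the latter called without sSAN replicate 2 at 0.49 (adjusted p = 0.0213). Its difference from the RA was -0.33 in the 59-day and 0.36 in the 70-day rats.

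For the LA over the RA, Loxl1 had a log2 fold change of -0.30 (adjusted p = 0.0551), with the replicate block of -0.30 (adjusted p = 0.000613) and without RA replicate 4 of -0.38 (adjusted p = 0.0141). Loxl1 fell in the LV against the RA, with a log2 fold change of -0.89 (SE 0.28, adjusted p = 0.0493). The call was lost with no filter on low counts, at -0.91 (adjusted p = 0.109), and within the 70-day rats, at -0.83 (adjusted p = 0.168). Leaving out any 1 RA library gave an adjusted p of 0.0543 to 0.0954 there. Against the LA the LV stood at -0.59 (adjusted p = 0.104), with DESeq2 at -0.59 (adjusted p = 0.0119), and at -1.16 (adjusted p = 0.000197) without LV replicate 3. On the deposited FPKM scale, which divides by length, the ratio of Loxl1 to Lox averaged 3.04 ± 0.186 for RA libraries and 3.43 ± 0.723 for LA libraries (SD, n = 4). For the nodes it averaged 1.93 ± 0.312 (iSAN) and 1.94 ± 0.859 (sSAN), and for the LV 1.63 ± 0.305 (n = 2). The highest iSAN ratio, 2.23, lay below the lowest RA and LA ratios, 2.91 and 2.81, as did the highest sSAN ratio of 2.74.

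Emilin1 (chr6:26821255-26828972, minus strand) encodes a glycoprotein at the border of elastin and microfibrils, and in mice it restrains the processing of TGF-beta. It alone of the 9 genes had its lowest means in the nodes. In replicates 1 to 4 the sSAN had 19.4, 16.9, 38.1 and 27.2 CPM and the iSAN 35.6, 26.1, 38.1 and 24.4 CPM. The RA had 42.2, 41.3, 41.4 and 40.00 CPM, the LA 42.5, 43.1, 45.99 and 42.6 CPM and the LV 45.8 and 38.7 CPM. All 8 node libraries lay below the lowest RA library, the RA lay just below the LA, and the LV overlapped both.

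Against the RA, Emilin1 was not called, at -0.69 (SE 0.22, adjusted p = 0.0526) for the sSAN and -0.38 (SE 0.14, adjusted p = 0.0832) for the iSAN. With the replicate block both were called, at -0.75 (adjusted p = 0.04) and -0.40 (adjusted p = 0.0376). The sSAN was also called without sSAN replicate 3, at -0.96 (adjusted p = 0.00412), and the iSAN without iSAN replicate 1, at -0.46 (adjusted p = 0.0478), or 3, at -0.49 (adjusted p = 0.0394). Against the LA it fell in both nodes, with log2 fold changes of -0.77 (SE 0.22, adjusted p = 0.037) in the sSAN and -0.46 (SE 0.14, adjusted p = 0.044) in the iSAN. The sSAN call was lost without sSAN replicate 1 or 4 or any 1 LA library, with adjusted p-values of 0.0565 to 0.0834. The iSAN call was lost without iSAN replicate 2 or 4 or any 1 LA library, with values of 0.0842 to 0.106.

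The sSAN libraries with the least Emilin1, replicates 2 and 1, had the highest adipocyte sums, 4231 and 3111 CPM, and replicates 3 and 4 had 977 and 717 CPM. In the iSAN, replicate 4 had the least Emilin1 and an adipocyte sum of 947 CPM, and replicate 2, with 26.1 CPM of Emilin1, had 2401 CPM. The part of adipocytes in this difference was not tested. Within the 59-day rats Emilin1 differed between the sSAN and the RA by -1.19 and within the 70-day rats by -0.33. The difference between the ages in this effect was 0.87 on the log2 scale (adjusted p = 0.0877), and that of Mfap5 was 0.75 (adjusted p = 0.0568). Over 54 tests of age in the atrial comparisons, none of the 9 genes was called by edgeR and 8 had an unadjusted p under 0.05, and of all genes in the sSAN comparison with the RA 2.17% were called.

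The nodes were set against each other and against the LA. Between the sSAN and the iSAN no elastic fiber gene was called in either direction by edgeR or DESeq2, with 0 of 9 higher and 2 of 9 lower in the sSAN at an unadjusted p under 0.05. For the table as a whole, 0% of genes were called higher and 0.00699% lower, the latter being Coch alone. All 9 means were lower in the sSAN, with log2 fold changes from -0.59 for Fbn1 to -0.058 for Fbln5 and a median of -0.38, against -0.0041 over all genes. The 95% intervals ran over -1.01 to -0.18 for Fbn1, -1.06 to 0.23 for Eln and -1.14 to 0.025 for Fbln1. Over the LA, 6 of 9 genes rose and 1 fell in the iSAN, where 10.4% of all genes were called higher and 6.72% lower. In the sSAN, 4 of 9 rose and 1 fell, where 11.8% and 8.41% of all genes were called. The genes that rose in both were Fbn1, Mfap5, Fbln2 and Lox, with Fbln1 and Loxl1 in the iSAN besides. The median of the 9 genes over the LA was 0.79 in the iSAN and 0.34 in the sSAN, against 0.0074 and 0.021 over all genes.

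The LV had the lowest mean of the 5 regions for 6 of the 9 genes, and not for Fbln5, Lox and Emilin1. Against the RA, 1 of 9 rose (Fbln5) and 2 fell (Mfap5 and Loxl1), where 23.5% of all genes were called higher and 22.7% lower. Against the LA, 3 fell (Fbln1, Fbln2 and Mfap5), where 21.1% of all genes were called lower. None rose against the LA, where 22.1% of all genes were called higher. No gene had an unadjusted p under 0.05 for a higher level and none was called higher by DESeq2, but Lox was called higher within the 70-day rats, at 0.70 (adjusted p = 0.0489). The median log2 fold change was -0.068 against the RA and -0.51 against the LA, with -0.028 and -0.029 over all genes. The LV fibroblast sum was 2922 to 3935 CPM and its smooth muscle sum 510 to 541 CPM, and mesothelial genes summed to 24.8 to 32.6 CPM there against 166 to 242 CPM in the RA and LA. The part of these cells in the LV differences was not tested, and the LV rests on 2 libraries.

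On the FPKM scale, levels can be set side by side between genes, with the limit that only 4 of the 10 genes (Fbn1, Fbln2, Loxl1 and Emilin1) had FPKM that equalled the count over the deposited length and library total to within 1%. Mean FPKM in the RA was 54.3 for Eln, 39.6 for Fbln1, 33.5 for Mfap5, 23.4 for Loxl1 and 18.05 for Fbn1. It was 12.4 for Fbln2, 11.5 for Emilin1, 7.92 for Fbln5 and 7.76 for Lox. The same scale in the iSAN gave 116 for Eln, 87.5 for Fbln1 and 74.3 for Mfap5 at the top and 17.2 for Lox and 8.96 for Emilin1 at the bottom. Eln made up 16.9% to 36.2% of the summed FPKM of the 10 genes in the 16 atrial and node libraries, with no difference in mean between regions as large as the spread between rats, and 13.2% and 17.5% in the LV. In the LV, Fbln1, Mfap5 and Eln stood at 19.4 ± 0.437, 17.3 ± 1.96 and 17.2 ± 7.14 FPKM (n = 2).

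Likeness of pattern was measured over the 18 libraries as the root mean square difference of log2 CPM, each gene centred on its own mean. Among 15247 genes the 5 outside the list closest to Eln were Mmp16 at 0.341, Zfp365 at 0.347, Fndc1 at 0.389, Col14a1 at 0.421 and Fkbp7 at 0.425. Mmp16 encodes a membrane-bound matrix metalloproteinase and Col14a1 a collagen that associates with fibrils. Mmp16 was low, with region means of 0.51 to 2.95 CPM. Col14a1 stood at 296 CPM in the iSAN, 242 CPM in the sSAN, 202 CPM in the LA, 132 CPM in the RA and 81.1 CPM in the LV on average. Of the elastic fiber genes, Fbn1 was closest to Eln, at 0.494, followed by Loxl1 at 0.501 and Mfap5 at 0.52, and Emilin1 was farthest, at 0.984. Among the 15247 genes Fbn1 ranked 41, Loxl1 46, Mfap5 67, Fbln2 198 and Lox 314. Fbln1 ranked 2668, Fbln5 6306 and Emilin1 11423, so these were not close to Eln. The closest pair within the list was Fbn1 and Lox, at 0.284, before Fbln2 and Mfap5, at 0.301. These distances are descriptions over libraries that share regions and rats.

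Other genes of the pathway gave a mixed picture. Of 15 microfibril and elastic fiber associated genes, 8 rose and 2 fell in the iSAN over the RA, where 10.4% and 6.16% of all genes did. In the sSAN 5 rose and none fell, with 13.8% and 8.48% of all genes called. In the LA 2 of 14 rose (4.37% of all genes), and in the LV 1 of 15 rose and 9 fell against the RA (23.5% and 22.7% of all genes). Efemp1, which encodes fibulin-3, averaged 20.7 CPM in the LV and 86.5 CPM in the RA, a fall of 2.07 on the log2 scale (adjusted p = 3.41e-06). Ltbp1, a latent TGF-beta binding protein of microfibrils, was lower in the iSAN than in the RA, at 116 and 211 CPM (log2 fold change -0.83, adjusted p = 0.00146), and lower still in the LV, at 57.7 CPM. Its level in the sSAN averaged 108 CPM (adjusted p = 0.0697 over the RA).

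Mmrn1, a multimerin related to the emilins, was low in the RA in the way Fbln5 was, and more so. The RA libraries lay at 0.048 to 0.29 CPM. Those of the sSAN lay at 11.02 to 19.2 CPM, of the iSAN at 13.5 to 27.2 CPM, of the LA at 4.42 to 15.2 CPM and of the LV at 8.40 to 12.3 CPM. It was called higher than in the RA in all 4, with adjusted p-values of 2.93e-05, 1.9e-05, 0.000421 and 8.51e-07 in that order. The RA level rests on a few reads per library.

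Of 13 cross-linking and assembly genes, 5 rose and none fell in the iSAN over the RA, where 10.4% and 6.16% of all genes did. In the sSAN 1 rose and 1 fell, shares no higher than the 13.8% and 8.48% of all genes. Loxl4, a lysyl oxidase, rose in the iSAN (log2 fold change 0.76, adjusted p = 0.0103) and fell in the LA (-0.84, adjusted p = 0.0146), with means of 8.83 CPM in the iSAN, 5.30 CPM in the RA and 2.97 CPM in the LA. Bmp1, whose protease activates lysyl oxidase, rose in the iSAN by 0.71 (adjusted p = 0.00117). Fn1, encoding fibronectin, averaged 489 CPM in the RA and 473 CPM in the iSAN but 82.0 CPM in the LV, a fall of 2.58 against the RA (adjusted p = 9.49e-07). The 3 TGF-beta ligands averaged 22.3 CPM for Tgfb1, 64.1 CPM for Tgfb2 and 87.7 CPM for Tgfb3 in the RA. Tgfb3 rose in the iSAN by 0.49 (adjusted p = 0.00829) and Tgfb1 in the sSAN by 0.38 (adjusted p = 0.0414). In the LV, Tgfb1 was higher than in the RA by 0.66 (adjusted p = 0.000498), and Tgfb2 and Tgfb3 were lower.

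Of 5 elastin-degrading enzymes, 3 had enough counts to test, and all 3 rose in the iSAN over the RA, where 10.4% of all genes did. Mmp2, a gelatinase that also cleaves elastin, rose over the RA by 0.70 in the LA (adjusted p = 0.000261), by 0.46 in the sSAN (adjusted p = 0.0202) and by 0.89 in the iSAN (adjusted p = 0.000733). Ctsk and Ctss, cathepsins of the lysosome, rose by 0.58 in the iSAN each, with adjusted p-values of 0.00303 and 0.00295. These genes thus ran in the same direction as most of the fiber genes in the iSAN. Markers of macrophages, which make Ctss, summed to 248 to 287 CPM in the iSAN and 151 to 210 CPM in the RA, and their part was not tested.

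Mfap4, a microfibril-associated glycoprotein that binds elastin, could not be followed in these counts. It had 1 count in LA replicate 3 and 0 in the other 17 libraries, where a count of 0 allows up to 3 counts, or 0.122 to 0.245 CPM per library, a limit of counting error only. The gene lies at chr10:47765432-47768483 in the deposited coordinates and overlaps Mapk7, which had 0 counts in every library. A second annotation, LOC102553715 at chr10:49000973-49003931, has a description that begins with microfibril-associated, and it was chosen after its counts were seen. It is not one of the 10 genes. LOC102553715 overlaps LOC100912585 at chr10:49002126-49009156, whose description begins with mitogen-activated, as that of Mapk7 does. LOC100912585, also chosen after its counts were seen, held 305 counts in all.

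LOC102553715 held 4909 counts in all, and they were uneven. In replicates 1 to 4 it had 1388, 42, 39 and 44 counts in the LA and 20, 592, 547 and 16 counts in the RA. The sSAN had 473, 24, 26 and 24 counts and the iSAN 39, 43, 1195 and 17 counts. In LV replicates 3 and 4 it had 10 and 370 counts. High values came in 1 or 2 libraries of each region and followed neither region nor rat. The sequences of Mfap4 and LOC102553715 were not compared here. How far reads of Mfap4 are counted to this annotation was not tested, and no value for Mfap4 RNA can be given.

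**Figure D4:**
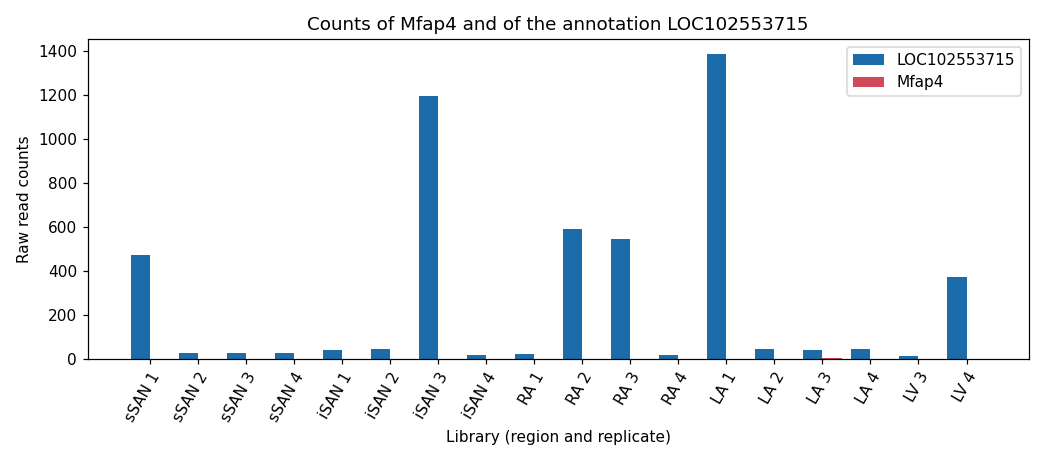
Raw counts of Mfap4 and of LOC102553715 in each of the 18 libraries, named by region and replicate number, on a linear axis from 0. LOC102553715 has 370 counts or more in 6 libraries and 44 or fewer in the other 12, while Mfap4 has 1 count in 1 library.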

How the data were processed

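RNA of 18 pieces of rat heart was measured by sequencing of whole-transcriptome libraries with paired reads. Alignment by the authors was done with HISAT2, and HTSeq 0.6.1 gave the raw counts per Ensembl gene, deposited unscaled. The deposited FPKM values and the gene length (other) were computed by the authors, FPKM per length and library size, with no logarithm taken. The same table holds 72 columns of normalized values per sample, 5 of mean FPKM per region and 40 of the authors' own DESeq2 comparisons (log2 fold changes and p-values), none of which was used. Whether strand was used in counting is not given in the sources used here.

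All tests used these raw counts. Under R 4.3.3, the package edgeR 4.0.16 (limma 3.58.1) scaled the libraries by TMM, dropped genes of low counts with filterByExpr and ran the robust quasi-likelihood test on the 2 regions compared, with Benjamini-Hochberg adjustment over all genes tested and a threshold of 0.05. The standard error is the log2 fold change over the square root of F. Levels are CPM on TMM factors of all 18 libraries, with SD. Alternatives were RLE size factors, no filter, DESeq2 1.42.0, all 5 regions in the fit, the replicate block, each age alone and each library left out. The code was tested on simulated data. The 10 genes, the lists and the markers were chosen with earlier results of these data known, and all 10 genes are named. Of each pathway list up to 3 genes with the smallest adjusted p in any comparison are named, and 5 genes like Eln. Of 114 listed genes, 111 were in the table (not Thsd4, Col1a2 and Pecam1).

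Libraries with 1 replicate number were taken as 1 rat, as their titles imply but do not state. Over 15248 genes, deviations from the region means of same-numbered libraries correlated at 0.117 to 0.166 for the sSAN and RA, 0.12 to 0.216 for the iSAN and RA and 0.21 to 0.245 for the LA and RA, against means of -0.047, -0.051 and -0.075 between different numbers. The check asked for at least 3 pairs with every same-numbered value over a set limit, which 0.117 passed and 0.0958 did not. Only these 3 comparisons met it. In the other 5 the lowest value was 0.0958 or less. The LV comparisons had 2 pairs each and could not meet it, whatever their values. These were 0.0557 to 0.151, against means of -0.033 and -0.034. The nodes over the LA had 0.0873 to 0.225, against means of -0.052 and -0.048. The sSAN and iSAN had -0.0163 to 0.449, against a mean of -0.070, so their lowest same-numbered pair showed no correlation. A failed check does not show different rats. Libraries with separate numbers were taken as separate rats, and no pair of libraries held identical counts.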

Additional observations from a re-analysis of the deposited data

Results flagged for a closer look

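One level stood apart from its group. Fbln2 in RA replicate 1 was at 61.2 CPM, while the other 3 RA libraries were at 45.3 to 47.6 CPM, and the gap to the nearest took 0.857 of the range of the 4 libraries. Over groups of 4, chance alone sets about 1 in 20 apart at this limit. The 9 tested genes were searched in each of the 4 atrial regions, so a single such value is no more than chance would give. Without that library Fbln2 stayed called in the sSAN, iSAN and LA over the RA.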

How the results depend on the processing

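The 4 calls of Fbln5 over the RA held under every alternative run, and 45 of 45 mean CPM levels moved by less than 1 SD with RLE size factors. Counts of genes called moved by over 1.5 times as follows. Lower in the sSAN over the RA, 1 was called (against 0) with RLE size factors, DESeq2, all 5 regions, the replicate block or the 59-day rats, and 0 to 1 with a library left out. Lower in the iSAN over the RA, 1 was called with DESeq2 or the block, and 0 to 1 with a library left out, while 1 rose (against 6) in the 59-day rats. Lower in the LA over the RA, 1 was called with no filter or DESeq2, 2 with the block, and 0 to 1 with a library left out. Over the LA, lower calls went from 1 to 0 in the 70-day rats for the sSAN, and with all 5 regions or either age alone for the iSAN, with a range of 0 to 1 for each when a library was left out. Over the LA, 0 rose in the iSAN in the 59-day rats, and 2 to 5 (against 4) in the sSAN with a library left out. Lower in the LV over the RA, 1 was called (against 2) with no filter or all 5 regions, 0 in the 70-day rats, and 1 to 2 with a library left out. Lower in the LV over the LA, 5 were called (against 3) with DESeq2 or the block, and 2 to 5 with a library left out, while 1 rose with the block or the 70-day rats. With replicate 2 left out of both regions, chosen after seeing the data, 3 rose in the sSAN over the RA (against 5), 2 over the LA (against 4), and 0 fell in either node over the LA.

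The replicate block was run too where the pairing check was not met, although 1 number was taken as 1 rat there. It gave Eln 0.72 (adjusted p = 0.00826) in the iSAN over the LA. For the LV it gave Eln -0.70 (adjusted p = 0.000736) over the RA and -1.06 (adjusted p = 2.59e-05) over the LA. All LV fits with the block rest on 2 pairs, so their p-values lean on the spread shared over genes. Between the nodes the block called no gene. For the LV over the RA it took the call of Mfap5 away, at -0.27 (adjusted p = 0.121), and over the LA it called Loxl1 lower, at -0.60 (adjusted p = 0.0245), and Lox higher, at 0.69 (adjusted p = 0.00565). Signs turned for values that were not called in the reported comparisons. In the 59-day rats these were Loxl1 -0.33 and Mfap5 -0.12 over the RA (sSAN and LA), Lox 0.10 for the sSAN over the iSAN, and Fbln1 -0.18 and Loxl1 -0.026 for the sSAN over the LA. In the 70-day rats they were Emilin1 0.041 for the sSAN over the iSAN, Fbn1 0.15, Fbln2 0.037 and Lox 0.047 for the LV over the RA, and Fbn1 0.035 over the LA. For the LV over the RA the block gave Fbn1 0.12, Fbln2 0.038 and Lox 0.044, and all 5 regions gave Fbn1 0.0033. With a library left out, Loxl1 ran from -0.14 to 0.19 in the sSAN over the RA, Fbn1 from -0.025 to 0.15 in the LA over the RA, Fbln5 from -0.10 to 0.039 between the nodes and Fbln1 from -0.053 to 0.39 in the sSAN over the LA. In the LV over the RA, Fbn1 ran from -0.45 to 0.31, Fbln2 from -0.24 to 0.083, Lox from -0.38 to 0.22 and Emilin1 from -0.10 to 0.15, and over the LA Fbn1 from -0.52 to 0.23 and Emilin1 from -0.17 to 0.068. Of these values, Fbn1 at -0.52 was called. The cause of these changes was not tested. With 1 LV library left out, the other is assumed to vary like the RA or LA.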
